A study of Mus musculus with 2 samples.

Results

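Cluster 1 was a group of corneal epithelial cells of the mouse, taken as every cell that the deposited table of cells assigns to cluster number 1. It held 3052 of 28867 cells, of which 2461 came from unwounded corneas and 591 from wounded ones. Droplet-based single-cell RNA-seq had been run on 1 library per condition. The UW library pooled the 8 corneas of 4 unwounded mice. The W library pooled those of 4 mice taken 24 h after the central epithelium had been outlined with a 2.5 mm trephine, scraped off with a rust ring remover and treated with ofloxacin. The mice were males of 6 to 8 weeks, of a strain not given in the sources used here, and carried no transgene named there. In both libraries, dispase II freed the epithelial sheet, which was digested with trypsin, the rest of the tissue was digested with collagenase A, and the cells were mixed before capture, so each library also held stromal and immune cells. With 1 library per condition there were no replicates, no test was possible, and every difference between UW and W below is a description of these libraries. A loss of cells and a change of state that places cells under another cluster number cannot be told apart either.

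The corneal epithelium is a stratified, transparent sheet. Basal cells sit on the basement membrane through hemidesmosomes, suprabasal (wing) cells above them are held together by desmosomes and no longer divide, and superficial cells at the tear film carry mucins and tight junctions. *Krt12* is the keratin of the corneal lineage, whereas *Krt14* and *Krt15* are keratins of basal and limbal cells. After the epithelium is scraped off, neighbouring sheets spread over the bare area and their cells switch on keratins of activated epithelium such as *Krt6a* and *Krt16*.

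The 5 genes by which the cluster had been described were *Dapl1*, *Pygl*, *Gsta2*, *Epgn* and *Tmprss11d*. Since the clusters were made from the expression of these same cells, the levels of the 5 genes are a check of the label and not a finding. *Dapl1*, a gene of the death-associated protein family found in stratified epithelia, lies at chr2:59484653-59505020 of GRCm38. *Pygl* (chr12:70190811-70231488) encodes liver-type glycogen phosphorylase, *Gsta2* (chr9:78331018-78355788) an alpha-class glutathione S-transferase, *Epgn* (chr5:91027464-91035215) the EGF receptor ligand epigen, and *Tmprss11d* (chr5:86302217-86373420) a membrane serine protease. All 5 are protein coding in GENCODE M21. Levels are given in CPM, the counts of a gene summed over the cells of a cluster in 1 library per 1000000 UMIs of that sum, where a UMI marks 1 captured RNA molecule.

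*Dapl1* stood at 3009 CPM in UW (95% Poisson interval 2994 to 3023) and 1087 in W (1070.4 to 1105). These intervals cover counting error only. *Pygl* stood at 169 CPM in UW against 17.1 in W, *Gsta2* at 319.5 and 143, *Epgn* at 210.2 and 201, and *Tmprss11d* at 562 and 267. Cluster 1 had the highest level of the 10 epithelial clusters (1 to 9 and 11) for 4 of the 5 genes in UW, where cluster 3 had more *Tmprss11d* (612 CPM), and for all 5 in W. In the stromal cells of cluster 0, which should lack them, the 5 genes stood between 4.18 (*Epgn*) and 94.3 CPM (*Dapl1*) in UW and between 4.07 (*Pygl*) and 31.6 CPM (*Dapl1*) in W. The reads of *Gsta2* and its close relative *Gsta1* may be split between them, and *Gsta1* stood at 20.3 and 17.6 CPM.

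**Figure D1:**
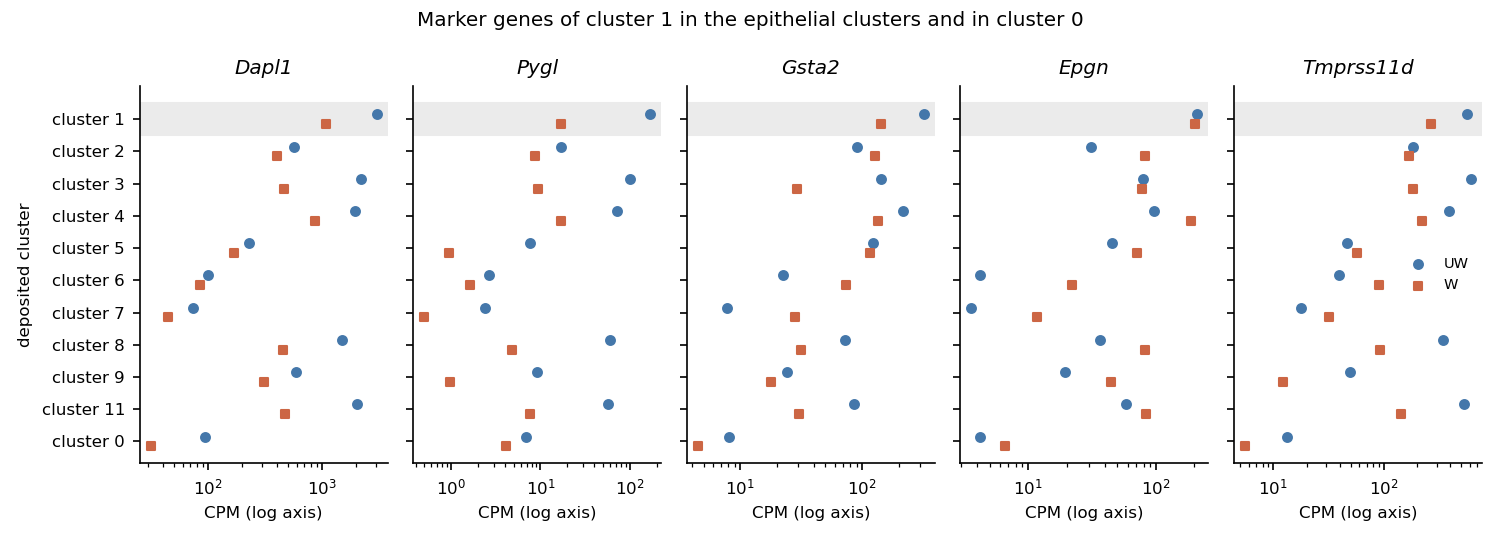
Level of the 5 marker genes (CPM, log axes) in each epithelial cluster and in the stromal cluster 0, with UW as circles and W as squares. Cluster 1, shaded, lies furthest right in both libraries except for *Tmprss11d* in UW, and in the W library the distance to cluster 4 is small.

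The name suprabasal was checked against marker lists. The basal adhesion genes *Itgb4* (hemidesmosome integrin), *Lamb3* (laminin 332) and *Itga3* stood at 3.06, 0.873 and 2.57 CPM in cluster 1 of UW, below the 4.54, 0.949 and 15.5 CPM of cluster 0, against 134, 26.7 and 50.1 CPM in cluster 3. *Col17a1*, also of the hemidesmosome, was at 357 CPM in cluster 1 of UW, between cluster 4 (139) and cluster 3 (1108). *Krt12* was at 41515 CPM and *Krt5* at 9419.9, while the superficial genes *Krt78* and *Muc1* were at 5.77 and 2.46 CPM, against 374 and 43.4 in cluster 6. *Pax6*, the transcription factor of the eye, stood at 296 CPM in UW against 293 in W. The lists were mixed in UW. Of the other basal adhesion genes, *Itga6* was at 233 CPM against 536 in cluster 3 and 50.2 in cluster 0, and *Dst* at 280.2 against 598 and 266. Of the superficial list, *Lypd2* was at 8167 CPM against 18520.3 in cluster 6 and 648 in cluster 0, and *Upk1b* at 473 against 1992 and 70.3. *Cldn4*, also on that list, stood at 1288 CPM, the highest of the 10 epithelial clusters. The whole superficial list summed to 10346 CPM in cluster 1 of UW and 1252 in cluster 0. The whole basal list summed to 12010 CPM in cluster 1 of UW, close to the 12492 of cluster 3, and to 1661 in cluster 0. *Krt5* made up most of this sum in cluster 1. In W, of the basal genes, *Itgb4* stood at 35.5 CPM and *Krt14* at 17124, both higher than in UW, while *Dst* and *Trp63* stood at 152 and 68.2, against 280.2 and 83.2 in UW.

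Cluster 1 was set apart from its neighbours by degree. It was compared with clusters 2, 3 and 4, which held 2792, 2674 and 2447 cells. Of 4853 genes at 20 CPM or more in cluster 1 of UW, 1 (*Epgn*, 0.0206%) exceeded the highest of the 3 clusters by at least 2-fold, and of 4722 in W, 1 (*Ly6d*, 0.0212%) did so. *Ly6d*, a GPI-anchored surface protein of keratinocytes, stood at 78.0 CPM in W against 8.65, 27.0 and 27.1 in clusters 2, 3 and 4. Only 1.77% of UW cells and 17.1% of W cells had a UMI of it after every cell was thinned to 5000 UMIs. Cluster 1 had the highest level among the 10 epithelial clusters for 361 of 4853 genes in UW (7.44%), for 306 of 4722 in W (6.48%), and for 76 of 4201 genes in both. Ranked by the smaller of the log2 distances to the next cluster in UW and W, *Dapl1* led these 76, at 0.45 in UW and 0.33 in W. The uncharacterised transcript *A830036E02Rik* followed (0.65 and 0.27), then *Agpat3*, an acyltransferase of phospholipid synthesis (0.39 and 0.24).

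Between cluster 3, which held the basal adhesion genes, and cluster 2, which held more of the superficial genes, cluster 1 had a middle place nearer to cluster 3. Among the 228 genes of UW that were at least 4-fold higher in cluster 2 than in cluster 3 at 50 CPM or more in 1 of them, 214 had a level in cluster 1 between the 2 clusters. If cluster 3 is set to 0 and cluster 2 to 1 on the log2 scale, the median gene of cluster 1 lay at 0.38 (quartiles 0.24 and 0.52), and that of cluster 4 at 0.75. Of the 174 genes at least 4-fold higher in cluster 3, 167 lay between, at a median of 0.33 for cluster 1 and 0.66 for cluster 4. In W the corresponding medians of cluster 1 were 0.41 over 169 genes and 0.39 over 198. Clusters 3 and 2 are the ends of this scale by its construction, since the genes were picked for the gap between them. A place between the ends was as common in cluster 4, at 217 of the 228 genes. What the medians show is that cluster 1 lay nearer to cluster 3 than cluster 4 did, on both sets of genes in both libraries. These sets of genes were chosen after the levels had been seen.

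In the W library the cluster made up a smaller share of cells. It held 14.96% of all UW cells (exact Clopper-Pearson 95% interval 14.4 to 15.5) and 4.76% of all W cells (4.39 to 5.15). Among epithelial cells alone it held 18.2% of 13501 in UW and 6.95% of 8507 in W. Cluster 2 went from 14.1% to 10.4% of epithelial cells, cluster 3 from 13.3% to 10.4% and cluster 4 from 11.4% to 10.7%, so the gap was wider for cluster 1 than for the others. Genes that mark the cluster, such as *Pygl*, differed between the libraries, so a cell's place in cluster 1 is not the same measurement in both. The libraries shared 52 barcodes, of which 1 was in cluster 1 in both.

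Median depth was similar in both libraries, and its spread was wider in W. The median cell of cluster 1 held 22718 UMIs and 4195 genes in UW and 22368 UMIs and 3982 genes in W, with quartiles of 20322 and 25257 UMIs in UW and 15076.5 and 31621.5 in W. The sums held 56136115 UMIs in UW and 14375296 in W. Mitochondrial UMIs had medians of 2.53% and 2.59%. A deposited doublet column marked 41 of the UW cells and none of the W cells. Cells with at least 10% of UMIs from the nuclear RNA *Malat1* and from *Gm42418*, a transcript that overlaps ribosomal RNA, were 30 in UW (1.22%) and 49 in W (8.29%). Their median depth was 4750 UMIs in UW and 7103 in W. Leaving them out, which was chosen after the data had been seen, gave 420 genes higher and 550 lower in W in place of the 416 and 530 below.

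Of 5374 genes at 20 CPM or more in either library, 416 (7.74%) were at least 2-fold higher in cluster 1 of W and 530 (9.86%) at least 2-fold lower. The median log2 ratio of W over UW was -0.10. Of the 416, 226 reached 20 CPM in W alone, and of the 530, 241 in UW alone. A gene that enters through 1 library is likely to differ for that reason, so the counts over gene lists below describe the members and support nothing. Where fewer members reached 20 CPM in both libraries, their number is given as well. Of all 4201 genes at 20 CPM or more in both libraries, 190 (4.52%) were past 2-fold higher and 289 (6.88%) lower. Counts over a list are to be read beside these shares. With TMM scaling every log2 ratio fell by 0.13, which gave 339 higher and 717 lower, so the higher genes made up 32.1% of those past 2-fold in place of 44.0%. In clusters 2, 3 and 4 the genes higher in W by the same rule were 6.35%, 10.4% and 6.93%, and those lower 13.2%, 10.2% and 14.2%. The marker genes themselves were mostly in the lower group. Of these genes, 4 of the 5 were past 2-fold lower, with log2 ratios of -3.30 for *Pygl*, -1.47 for *Dapl1*, -1.16 for *Gsta2* and -1.08 for *Tmprss11d*, and *Epgn* stood at -0.07. *Pygl* was at 20 CPM or more in UW alone. After thinning, 52.6% of UW cells and 7.30% of W cells of cluster 1 had a UMI of *Pygl*, against 3.93% and 2.46% in cluster 0, whose median depth before thinning was 11853 UMIs in UW and 17588 in W. Without thinning the shares in cluster 1 were 88.7% and 27.2%.

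**Figure D2:**
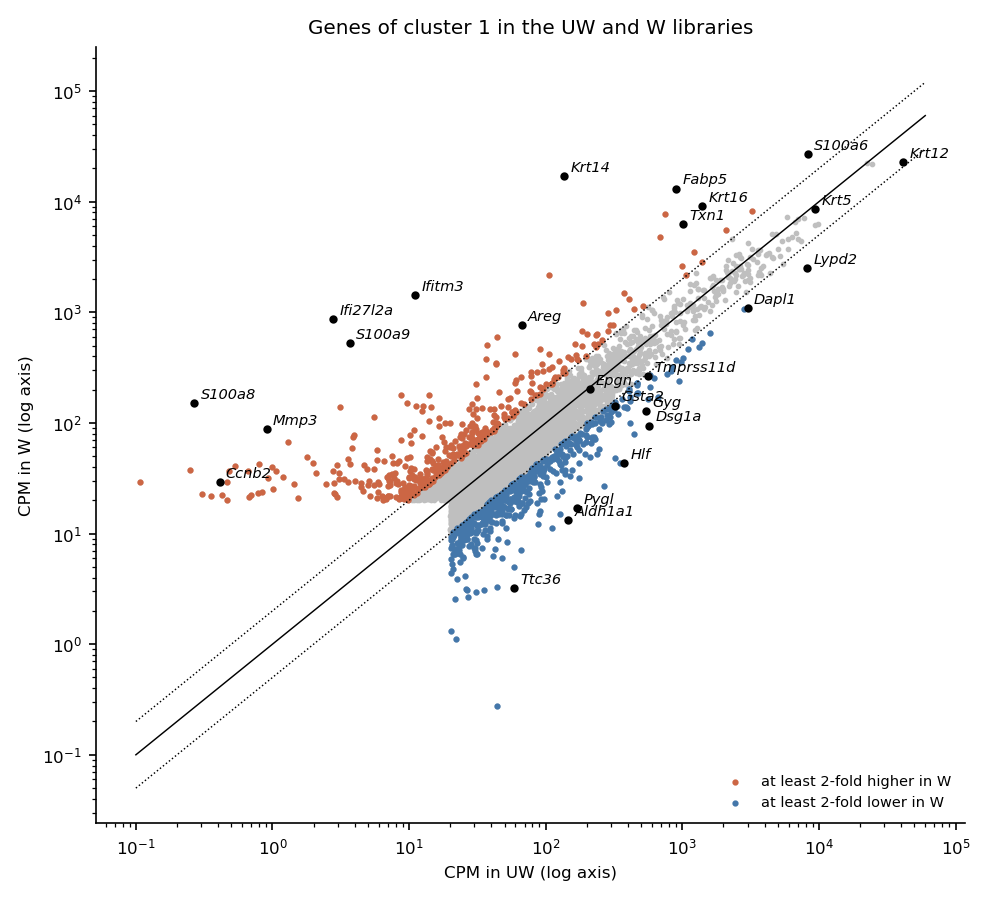
CPM of each of the 5374 compared genes in cluster 1, UW on the x axis and W on the y axis (both log), with equality as a solid line and 2-fold as dotted lines. *S100a8*, *Ifi27l2a* and *Krt14* lie among the furthest above the lines and *Ttc36*, *Pygl* and *Hlf* among the furthest below, whereas *Krt5* and *Epgn* lie near equality.

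Keratins were among the abundant genes with the widest gaps between the libraries. *Krt14*, the partner of *Krt5* in basal cells, stood at 136 CPM in UW against 17124 in W, a log2 ratio of 6.98 (counting interval 6.94 to 7.01). In cluster 0 it stood at 57.4 and 821 CPM. The W level of cluster 1 was the highest of the 10 epithelial clusters. *Krt5* itself was at 9419.9 and 8570.2 CPM, and *Krt12* at 41515 and 22784. Of the 6 keratins listed as activated by wounding, 4 were compared, all 4 at 20 CPM or more in both libraries, and each was past 2-fold higher in W. *Krt16* stood at 1402 and 9164 CPM (2.71), *Krt17* at 36.4 and 378, *Krt6a* at 3217 and 8234, and *Krt6b* at 995 and 2622. *Krt6a* and *Krt6b* are near-identical copies, so their split is uncertain. *Krt15* stood at 1068 and 2186 CPM. Its log2 ratio of 1.03 came down to 0.81 without the 25% of cells with most stromal and immune UMIs, an alternative chosen after the data had been seen.

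Of the 11 genes of the conjunctival list, 5 were compared and each was past 2-fold higher, 4 of them at 20 CPM or more in both libraries. Among the 5 were *Krt13* at 285 and 977 CPM, *Krt19* at 13.98 and 103 and *Krt4* at 20.2 and 63.1. In cluster 5, the highest of the epithelial clusters for both, *Krt19* stood at 1489 and 1727 CPM and *Krt4* at 3016 and 3291. Of the cornified envelope list, 3 of 25 genes were compared, 2 of them at the level in both libraries, and these 3 were higher in W, *Sprr1b* at 0.659 and 37.0 CPM, *Sprr1a* at 36.3 and 260.0, and the crosslinking enzyme *Tgm1* at 25.2 and 78.7. *Sprr1a* and *Sprr1b* have similar sequences and may share reads.

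Several genes of other kinds were abundant in W. *Fabp5*, an epidermal fatty acid binding protein, was at 904 CPM in UW against 13117 in W (3.86), the thioredoxin *Txn1* at 1017 and 6236, and the stefin *BC100530* at 685 and 4778. *S100a6* was the most abundant gene of W, at 27158 CPM against 8336 in UW, and *S100a11* was at 2093 and 5556. Cluster 1 had a higher level of *Fabp5* and *Txn1* in W than clusters 2, 3 and 4, which stood at 4804, 4856 and 10132 CPM for *Fabp5* and at 1161, 4346 and 3745 for *Txn1*.

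Desmosome genes, which hold suprabasal cells together, included cadherins and a plaque protein that were lower in W. Of 12 compared desmosome genes, all at 20 CPM or more in both libraries, 3 were past 2-fold lower and 1 higher, with a list median of -0.53 beside -0.10 over all genes. The desmosomal cadherins *Dsg1a* and *Dsc3* stood at 570.0 and 94.5 CPM and at 938 and 241, and the plaque protein *Dsp* at 2847 and 1077. *Dsg1a* has near-identical neighbours, and of these *Dsg1b* was at 54.3 and 37.3. *Dsg3* stood at 353 and 370.1 CPM, and *Pkp3*, the one higher member, at 105 and 309. None of 13 compared tight junction genes was past 2-fold in either direction, with a median of -0.22. Of these, 11 were at 20 CPM or more in both libraries. *Cldn4* stood at 1288 and 718 CPM and *Cldn7* at 764 and 847.

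Of 5 compared superficial genes, all at 20 CPM or more in both libraries, 3 were past 2-fold lower and none higher. Over all genes of that kind the shares were 6.88% and 4.52%. *Lypd2*, a small protein abundant at the ocular surface, stood at 8167 CPM in UW against 2525 in W, and the uroplakin *Upk1b* at 473 and 185. *Psca* was at 316 and 130.4 CPM, against 412 and 118 in cluster 0, and the part of free RNA in its level was not tested. *Slurp1*, a secreted relative of *Lypd2*, stood at 5411 and 2728 CPM.

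The basal list was uneven. Of 11 genes at 20 CPM or more in both libraries, 2 were past 2-fold higher, *Krt14* and *Krt15*, and none lower, with a median of 0.12. A further 2 past 2-fold reached the level in W alone, *Itgb4*, at 3.06 and 35.5 CPM, and *Lama3*, at 18.4 and 37.6. *Itga6*, the partner of *Itgb4*, stood at 233 and 308 CPM, *Trp63* at 83.2 and 68.2, and *Dst*, which links hemidesmosomes to keratin, at 280.2 and 152.

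Of 23 listed genes of glycogen use, to which the marker *Pygl* belongs, 5 were compared and only 2 were at 20 CPM or more in both libraries, *Gyg* past 2-fold lower and *Ugp2* within 2-fold. *Gyg*, the primer of glycogen chains, stood at 539.6 CPM in UW against 127 in W, and the phosphorylase kinase subunit *Phkb* at 39.1 and 12.9. *Phkb* reached the level in UW alone. *Pgm1* reached it in W alone, at 11.03 and 32.4, and *Ugp2* stood at 36.3 and 31.7. *Gyg* was also lower in clusters 2, 3 and 4, with log2 ratios of -1.58, -2.89 and -1.92.

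Of 12 glycolysis genes at 20 CPM or more in both libraries, 6 were past 2-fold higher and none lower, all 12 had ratios above 0, and the median was 1.05 beside -0.08 over all genes of that kind. *Pkm* (pyruvate kinase) stood at 185 CPM in UW against 673 in W, *Tpi1* at 85.9 and 288, *Pgk1* at 77.3 and 196, *Gapdh* at 514 and 1145, and the glucose transporter *Slc2a1* at 28.0 and 65.0. The sixth, *Pfkl*, had a log2 ratio of 1.20, and of 0.95 in cells of 15000 to 30000 UMIs alone. *Pfkfb3*, which makes an activator of glycolysis, was past 2-fold lower and reached the level in UW alone, at 31.1 and 2.99 CPM. Most of these genes were also present in cluster 0, *Pkm* at 448 and 1248 CPM. Over all compared members, the median of the list was 0.93 in cluster 1, and 0.52, 1.32 and 0.66 in clusters 2, 3 and 4.

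**Figure D3:**
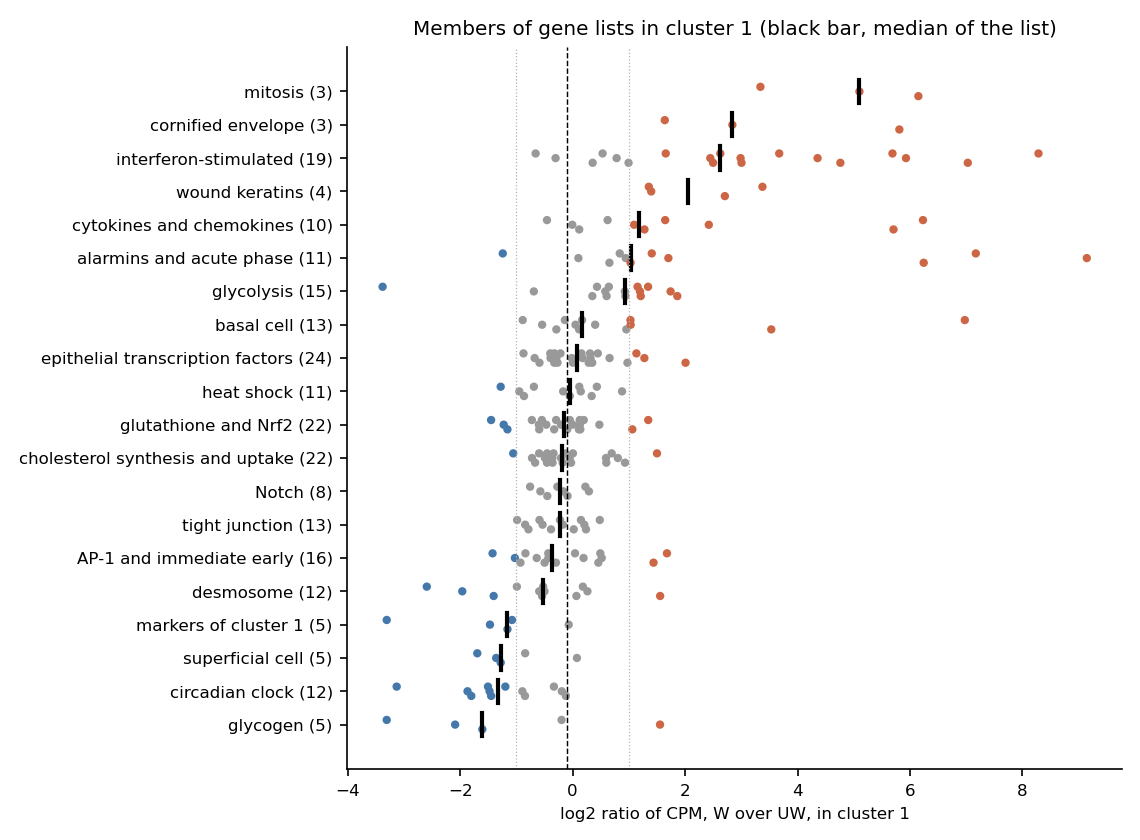
log2 ratio of CPM, W over UW, in cluster 1 for the compared members of 20 gene lists (their number in parentheses), with each list's median as a black bar, the median of all compared genes as a dashed line and 2-fold as dotted lines. The interferon-stimulated list spans -0.66 to 8.29, with 13 of its 19 genes at 20 CPM or more in W alone, and every circadian clock gene lies below 0.

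Several interferon-stimulated genes were near 0 in UW and not in W. Of 19 compared genes, 13 reached 20 CPM in W alone, and 12 of these were past 2-fold higher. Of the 6 at the level in both libraries, 1 (*Oasl1*) was past 2-fold higher and none lower, with a median of 0.66. The whole list of 25 genes, without a filter, summed to 369 CPM in UW and 3493 in W. *Ifi27l2a* stood at 2.78 CPM in UW against 867 in W, and the membrane protein *Ifitm3* at 11.04 and 1441. The stromal cells of cluster 0 held more of both, at 97.5 and 1375 CPM and at 967 and 5567. After thinning, the share of W cells with a UMI was 81.9% in cluster 1 and 83.8% in cluster 0 for *Ifi27l2a*, so free RNA could not be told apart from expression for this gene. Some others stood higher in cluster 1 of W than in cluster 0. Cluster 0 was the only other source set beside them here, and the part of free RNA was not tested. The ubiquitin-like *Isg15* stood at 18.4 and 100.3 CPM against 5.06 and 35.4 in cluster 0, *Oasl1* at 21.8 and 68.6 against 5.73 and 11.6, and *Zbp1*, a sensor of nucleic acid, at 1.3 and 67.1 against 2.85 and 54.7. The transcription factor *Irf7* stood at 10.8 and 86.7 CPM, and the sensors *Ifih1* and *Ddx58* at 36.0 and 29.2 and at 42.8 and 27.1. *Ifitm1*, named for the ratio furthest above the mean of the neighbours, stood at 106 and 2159 CPM with a log2 ratio of 4.34, against 2.18, 2.87 and 3.95 in clusters 2, 3 and 4. Its UW level in cluster 1 was the lowest of the 10 epithelial clusters, and its W level ranked 6 of 10. *Ifit3* and *Ifit3b* are near-identical copies, so their split is uncertain.

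The interferon-stimulated response element is a short promoter motif, and 3 genes of the list are shown with it. Each line gives the 160 bases before the RefSeq start of the gene, 5′ to 3′ on the strand of the gene in GRCm38.p6, and capitals mark matches on either strand to GAAA, 2 further bases of any kind and GAAA, with overlapping matches joined.
Isg15 (chr4:156200819-156200978, minus strand): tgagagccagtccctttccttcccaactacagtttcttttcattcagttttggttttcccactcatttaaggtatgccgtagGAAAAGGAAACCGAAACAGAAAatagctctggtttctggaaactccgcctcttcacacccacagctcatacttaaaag
Ifit3 (chr19:34583369-34583528, plus strand): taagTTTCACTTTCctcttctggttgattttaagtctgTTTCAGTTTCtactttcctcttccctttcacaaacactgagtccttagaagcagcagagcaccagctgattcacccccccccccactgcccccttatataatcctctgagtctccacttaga
Bst2 (chr8:71537473-71537632, minus strand): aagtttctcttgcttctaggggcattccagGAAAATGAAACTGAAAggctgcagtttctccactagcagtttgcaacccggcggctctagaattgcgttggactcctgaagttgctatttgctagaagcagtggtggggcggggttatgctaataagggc
The 300 bases from 250 before to 50 after the start were searched in the same way for every gene with a RefSeq entry. Of the whole list, 20 genes had an entry and 12 of these (60%) held the motif. *Ddx58* and *Ifih1*, which were not higher in W, were among the 12, so the motif went with the list and not with the ratio. Of the 13 genes of the list that were past 2-fold higher, 9 had an entry, and 5 of these held the motif, *Bst2*, *Ifit3*, *Ifit3b*, *Ifitm3* and *Isg15*. Of all 4240 genes compared in cluster 1 with an entry, 4.13% held it, as did 3.99% of all 27025 genes. None of the 5 markers of the cluster held it. A match is a description of the letters and not a site. *Bst2* stood at 5.56 CPM in UW against 114 in W, and *Ifit3* at 11.2 and 144.

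Circadian clock genes lay on 1 side of 0. All 12 compared genes had a log2 ratio below 0. Of the 10 at 20 CPM or more in both libraries, 5 were past 2-fold lower and none higher, with a median of -1.04. The genes furthest from 0 were outputs of the clock, the PAR bZIP factors *Hlf* (376 and 43.1 CPM), *Dbp* (132 and 37.8) and *Tef* (60.6 and 21.4), and the repressor *Ciart* (23.6 and 6.47). The nuclear receptors *Rora* and *Nr1d1* stood at 169 and 60.8 CPM and at 229 and 99.9. *Clock* itself was at 114 and 100.1, and *Per1* at 42.8 and 39.4. *Hlf* was lower by a similar amount in clusters 2, 3 and 4 (-2.82, -2.96 and -2.94). The hour at which each set of mice was taken is not given in the sources used here, so time of day and wounding cannot be told apart for these genes. The E-box CACGTG was found in the promoter window of 5 of 16 listed clock genes and in 12.8% of the compared genes.

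Cytokine and alarmin genes differed in their levels beside cluster 0. The genes named here are examples, and the lists were not sorted by this. The epithelial cytokine *Tslp* stood at 31.5 CPM in UW against 169 in W, *Il1a* at 49.3 and 119.7, and *Il1f9* (interleukin 36 gamma) at 0.428 and 22.3, each well above its level in cluster 0 of W, where they stood at 6.81, 7.67 and 1.45. In contrast, *Ccl2* (0.303 and 22.7 CPM) and the acute phase protein *Saa3* (0.481 and 36.5) stood at 861 and 3674 CPM in cluster 0 of W. The matrix protease *Mmp3* was likewise at 88.3 CPM in cluster 1 of W, between 69.1 and 97.2 in all 10 epithelial clusters, and at 4515 in cluster 0. The part of free RNA in these 3 genes was not tested. Of 10 compared cytokine genes, 7 were at 20 CPM or more in both libraries, 3 of them past 2-fold higher and none lower, and the other 3, *Ccl2* and *Il1f9* included, reached the level in W alone.

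*S100a8* and *S100a9*, the calgranulins of neutrophils and activated keratinocytes, stood at 0.267 and 151 CPM and at 3.69 and 531. After thinning, 28.1% and 58.5% of W cells of cluster 1 had a UMI of them, against 15.7% and 19.8% in cluster 0. Of the 13 genes of the immune list, these were the only 2 at 20 CPM or more in cluster 1 of W, and the list summed to 11.8 CPM in UW against 728 in W. The T cell gene *Cd3d* was at 0 in UW and *Cd3e* at 0 in W. The list's sum in the 3 neighbouring clusters of W lay between 606 and 1116 CPM. The part of free neutrophil RNA in these values was not tested. The stromal list summed to 274 CPM in UW and 509 in W, and its defining genes *Dcn*, *Lum* and *Kera* stood at 295, 76.5 and 16.9 CPM in W, the highest of the 10 epithelial clusters. The list summed to 76408 CPM in cluster 0 of UW and 40194 in W. Of the 9 genes of vessels, nerve and pigment cells none reached 20 CPM.

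EGF receptor ligands differed among themselves. *Areg* (amphiregulin) stood at 66.6 CPM in UW against 764 in W, and *Tgfa* at 9.39 and 22.5. *Hbegf* was at 339 and 323, and the receptor *Egfr* at 88.9 and 55.8. Of the 10 genes of this list at 20 CPM or more in both libraries, 2 were past 2-fold higher and none lower, and *Tgfa* reached the level in W alone. The feedback inhibitor *Errfi1*, 1 of the 2, had a log2 ratio of 1.04 that came to 0.91 with median-of-ratios scaling. Among 16 compared surface serine proteases and inhibitors, 4 were past 2-fold higher, *Prss27*, *Tmprss4*, *Spink5* and *Prss22*, and *Tmprss11d* alone was lower. Of the 16, 15 were at 20 CPM or more in both libraries, all of these named genes among them. Over all genes of that kind the shares were 4.52% and 6.88%. *Prss27* stood at 27.6 and 133 CPM, and the inhibitor *Spink5* at 24.3 and 73.5. The relatives *Tmprss11a*, *Tmprss11e* and *Tmprss11g* of the marker had log2 ratios of -0.34, -0.72 and -0.03.

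Of 24 compared epithelial transcription factors, all at 20 CPM or more in both libraries, 3 were past 2-fold higher and none lower. Over all genes of that kind the shares were 4.52% and 6.88%. The repressor *Prdm1* stood at 24.2 and 97.5 CPM, and *Id1*, which was at 811 and 846 CPM in cluster 0, at 258 and 567. *Klf4*, *Klf5* and *Ehf* had log2 ratios of 0.31, 0.32 and -0.33. In the Notch list none of 8 compared genes, 6 of them at 20 CPM or more in both libraries, was past 2-fold. *Notch3*, 1 of the 76 genes highest in cluster 1 in both libraries, stood at 62.9 and 42.3 CPM, and the target *Hes1* at 309 and 362. Of 22 compared glutathione and Nrf2 genes, 2 were past 2-fold higher (*Gss* and *Srxn1*) and 3 lower (*Gsta2*, *Gsta3* and *Gstp1*). Over all compared genes the shares were 7.74% and 9.86%. Of the 22, 16 were at 20 CPM or more in both libraries, while *Srxn1* reached the level in W alone and *Gstp1* in UW alone. *Gsta4*, at 9355 and 6205 CPM, and *Gsto1*, at 5353 and 4372, were within 2-fold.

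Among 15 early response genes at 20 CPM or more in both libraries, 1 was past 2-fold higher and 2 lower. Over all genes of that kind the shares were 4.52% and 6.88%. The phosphatase *Dusp1* stood at 326 and 1043 CPM, and *Jund* at 1405 and 524. *Fos* stood at 1231 and 689, against 3377 and 597 in cluster 0. *Socs3*, feedback inhibitor of gp130 cytokines, stood at 352 and 43.4 CPM with a log2 ratio of -3.02. The CDK inhibitor *Cdkn1a* was at 827 and 292 CPM.

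Division genes were low in both libraries. The 16 mitosis genes, without a filter, summed to 14.6 CPM in UW and 164 in W. Of these, 3 reached 20 CPM, all in W alone, *Ccnb2* at 0.410 and 29.1 CPM, *Birc5* at 0.926 and 31.8 and *Ube2c* at 2.81 and 28.5. *Mki67* stood at 1.34 and 10.8 CPM and *Top2a* at 2.92 and 6.61. In cluster 8, the highest for *Mki67*, *Ccnb2*, *Mki67* and *Top2a* stood at 112, 504 and 536 CPM in UW. The share of thinned cells with a UMI of any mitosis gene was 7.51% in UW and 45.9% in W for cluster 1, 13.6% and 45.8% for cluster 3, and 5.75% and 26.8% for cluster 4. In cluster 0 of W, *Ccnb2*, *Birc5* and *Ube2c* stood at 4.81, 7.61 and 9.18 CPM, and the part of free RNA in the shares was not tested.

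The other genes furthest lower in W had varied roles. *Aldh1a1*, the retinal-oxidising enzyme, stood at 146 and 13.3 CPM, whereas the corneal crystallin *Aldh3a1* stood at 6812 and 5202. *Fn1* (fibronectin) was at 110.5 and 11.3, the zinc transporter *Slc39a8* at 128 and 14.96, the cysteine dioxygenase *Cdo1* at 321 and 48.0, and *Ly6g6c* at 265 and 26.8. *Ttc36* had the lowest ratio of all genes at 50 CPM or more in either library (58.7 and 3.2 CPM, log2 ratio -4.20, counting interval -4.65 to -3.78). For *Aldh1a1* and *Fn1* the stromal cells of cluster 0 held more, at 337 and 327 CPM in W.

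Some genes had ratios in clusters 1 and 3 that both lay below those in clusters 2 and 4. They were picked by that ratio or after their values were seen, so no test of likeness stands behind them. The 6 genes whose ratio in cluster 1 fell furthest below the mean of the 3 neighbours were *Cyr61*, *Cldn1*, *Sprr1a*, *Adm*, *Plac8* and *Tmcc3*. *Cyr61*, a matrix protein induced by stretch and serum, had log2 ratios of -0.14 in cluster 1 and -0.11 in cluster 3, against 2.16 and 2.47 in clusters 2 and 4. Its UW level was already 285 CPM in cluster 1 and 347 in cluster 3, and 101 and 111 in the others. The tight junction gene *Cldn1* had 0.48 and -0.52 against 3.12 and 3.099, with UW levels of 142, 174, 10.0 and 29.2 CPM in clusters 1, 3, 2 and 4. The peptide hormone *Adm* had 0.40 and -0.30 against 2.47 and 2.85. *Tmcc3* had -0.34 and -0.73 against 1.45 and 1.45. *Sprr1a* and *Plac8* did not have this order, with 2.84 and 4.11 against 4.63 and 3.83, and with -1.39 and -0.44 against 0.37 and -0.81. For *Cldn1*, *Adm* and *Sesn2* the ratio was above 0 in cluster 1 and below 0 in cluster 3. The same order was seen, among list members chosen after their values were seen, for *Sesn2* (0.47 and -0.30 against 2.18 and 2.68), *Sox9* (0.35 and 0.32 against 1.84 and 1.77) and *Klf6* (-0.27 and -0.69 against 0.89 and 1.495). *Epgn*, higher in cluster 1 of UW than anywhere else, also belonged here, with -0.07 and -0.03 against 1.41 and 0.95.

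**Figure D4:**
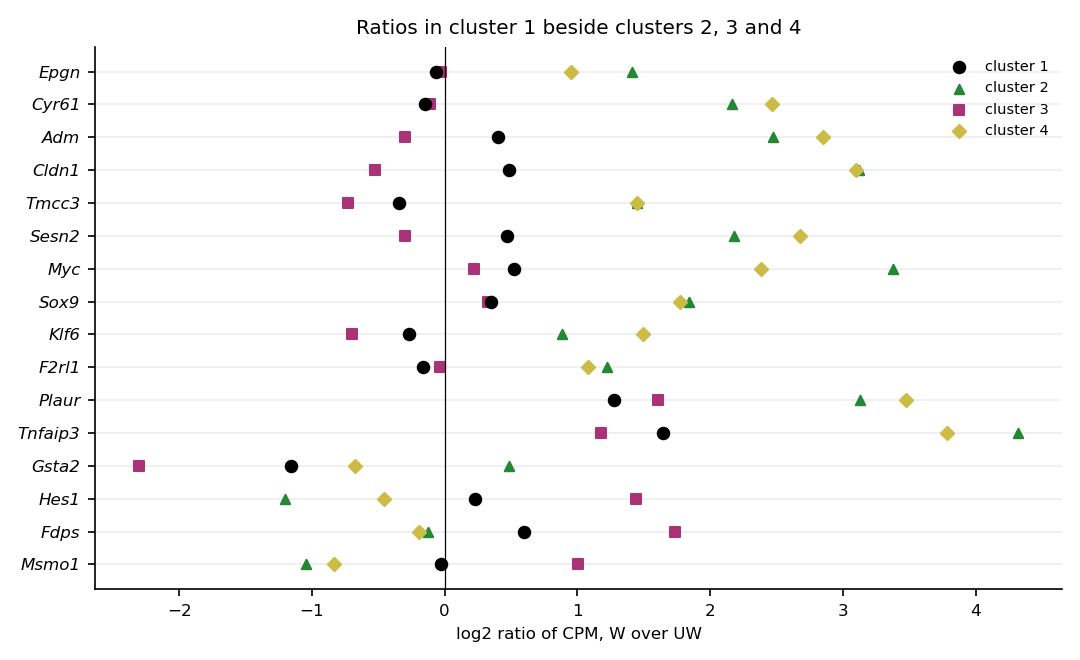
log2 ratio of CPM, W over UW, of 16 genes in clusters 1, 2, 3 and 4. For the upper 12 genes clusters 2 and 4 (triangles and diamonds) lie to the right of clusters 1 and 3 (circles and squares), and for *Fdps* and *Msmo1* cluster 3 alone lies furthest right with cluster 1 in the middle.

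Cholesterol synthesis genes placed cluster 1 between its neighbours. Of 22 compared genes in cluster 1, 1 was past 2-fold higher (*Mvd*) and 1 lower, with a median of -0.19, whereas the medians were -0.72 in cluster 2, 0.61 in cluster 3 and -0.73 in cluster 4. *Fdps*, a prenyl synthase, stood at 312 and 472 CPM in cluster 1, 138 and 458 in cluster 3 and 529 and 463 in cluster 4, so that the W levels lay closer together than the UW levels. *Msmo1* stood at 239 and 235 in cluster 1, 154 and 309 in cluster 3 and 371 and 208 in cluster 4. The limbal hormone subunit *Gpha2* was at 10.2 and 77.4 CPM in cluster 1, the lowest of the 10 epithelial clusters in UW, against 821 and 4206 in cluster 0. *Wfdc2* stood at 31.1 and 224, and *Phlda3*, a p53 target, at 66.5 and 261.

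Genes with a mean of at least 0.1 UMI per thinned cell, picked in each library by itself, had a somewhat wider spread among cells of the cluster in W. After thinning to 5000 UMIs, which kept 2369 UW and 562 W cells and left out 92 and 29 shallower ones, the Fano factor (variance over mean, 1 for counting noise alone) had a median of 1.03 over 4753 genes in UW and 1.07 over 4615 in W, with 90th percentiles of 1.15 and 1.37. In UW, *Krt15* was the most uneven gene, at a Fano factor of 27.3 with 66.1% of cells positive, against 17.5 in W, and was followed by *Malat1* (25.9) and *Gm42418* (16.01). In W, *Gm42418* and *Malat1* led at 175 and 113, then *Krt12* at 25.8, *Krt16* at 22.9 and *Fabp5* at 21.1. The factor can rise with a gene's level, and *Gm42418*, *Krt16* and *Fabp5* had higher levels in W. Spread at an equal level was not tested. *Krt12* had been at 8.10 in UW, and *Dapl1* was at 2.39 in UW and 3.49 in W. *Dapl1* was found in 99.96% of thinned UW cells and 95.02% of W cells, against 37.0% and 13.8% in cluster 0.

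Counted per cell, the quartiles of 10 of 36 lists did not overlap between the libraries in cluster 1, and those of 26 did. The superficial list took a median of 1.00% of a thinned cell's UMIs in UW (quartiles 0.86 and 1.20) and 0.35% in W (0.24 and 0.48). The wound keratins took 0.52% (0.32 and 0.76) and 1.93% (1.27 and 2.72), the interferon-stimulated genes 0.02% and 0.34%, and the glycogen genes 0.08% and 0.02%. *Ifitm3* and *Ifi27l2a*, of which cluster 0 held more, made up most of the 3493 CPM of the interferon-stimulated list in W. The EGF receptor list took 0.10% (0.06 and 0.14) and 0.14% (0.08 and 0.28), with 95th percentiles of 0.24% and 0.64%. The early response list took 1.04% (0.82 and 1.34) and 0.86% (0.46 and 1.86). The upper quartile of the superficial list in W lay below the 5th percentile in UW, 0.62%. For wound keratins the lower quartile in W lay above the 95th percentile in UW, 1.12%. Cells of 1 library are not replicates, so this describes spread among cells and not error between mice. In W the wound keratin share of cluster 1 lay between that of cluster 3 (0.68%) and those of clusters 2 and 4 (2.80% and 2.94%).

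**Figure D5:**
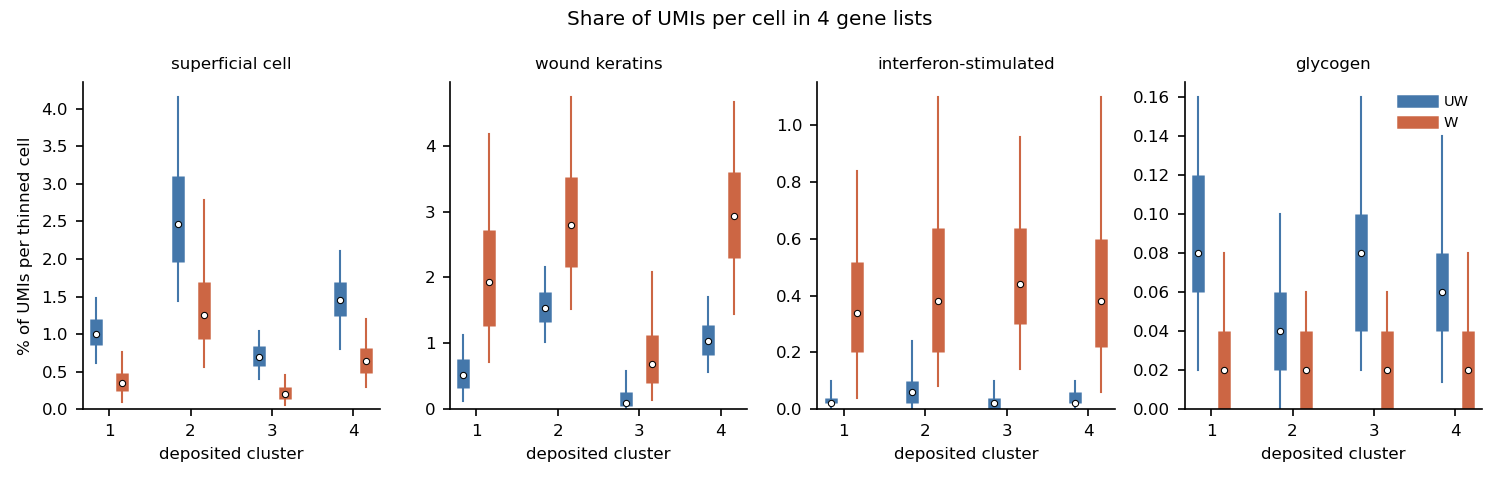
Percent of UMIs per cell, thinned to 5000 UMIs, in 4 gene lists for clusters 1 to 4 of UW and W, with the median as a dot, the quartiles as a thick bar and the 5th to 95th percentiles as a thin line. In cluster 1 the thick bars of UW and W do not overlap in these panels, which show 4 of the 10 such lists among 36.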

How the data were processed

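The series holds 2 mouse cornea libraries of droplet-based single-cell RNA-seq, UW and W. The deposited tables hold raw UMI counts per gene and cell with a table of clusters and quality measures. Per the labels and the study's methods, the authors made the counts with Cell Ranger 3.1.0 and processed them with Seurat. They removed cells with few or very many genes or a high mitochondrial share, called doublets and cells with a dissociation signature, integrated the libraries and clustered the cells. Integration and these removals set which cells carry each cluster number. The processing notes name the build mm9, whereas the methods name mm10. Gene positions are from GENCODE M21 (GRCm38), in which 19908 of 20198 symbols were found.

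Cells of cluster 1 were summed per library and given as CPM. Genes at 20 CPM or more in either library were compared, and at least 2-fold counted as higher or lower. Intervals are 95% exact Poisson and Clopper-Pearson intervals for counting error. Depth is given in the report. For shares of cells with a UMI and Fano factors, cells were thinned to 5000 UMIs.

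Named genes were the 20 of highest CPM in each library, the 12 highest and 12 lowest ratios at 50 CPM or more, the 12 highest over clusters 2, 3 and 4, the 6 furthest on each side of the mean ratio of those clusters, the 10 highest Fano factors per library, and list members. Some list members are not reported by name here. The members and lists were chosen with earlier results of these data known.

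No count model was run, since each condition had 1 library. TMM factors of edgeR 4.0.16 and size factors of DESeq2 1.42.0 (R 4.3.3) were alternatives. Python 3.11.15, numpy 2.4.6, pandas 2.3.3, scipy 1.17.1 and matplotlib 3.10.9 were used. The ratio script was tested on simulated data. Promoter letters are from RefSeq (GRCm38.p6).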

Additional observations from a re-analysis of the deposited data

How the results depend on the processing

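No paired analysis was possible because each condition had 1 library, and for the same reason no replicate could be left out. Of the epithelial cells alone, cluster 1 was 18.2% in UW and 6.95% in W. Without cells with at least 10% of UMIs from *Malat1* and *Gm42418*, its share was 15.7% of UW and 4.65% of W cells. Without a filter on level, 4922 genes were at least 2-fold higher and 1547 lower, a set in which genes with few counts dominate, and at 100 CPM or more the numbers were 133 and 166, from 1509 genes. At 100 CPM or more the limbal list had a median log2 ratio of -0.21 in place of 1.03, since fewer of its genes were compared. Its 4 members at 20 CPM or more in both libraries had a median of -0.46, with 1 past 2-fold higher and 1 lower. With the other settings (stricter cell filter, doublets left out, cells of 15000 to 30000 UMIs, the 25% of cells with the highest stromal and immune share left out, TMM, size factors, mean of each cell's CPM, thinning) the counts lay between 336 and 441 higher and between 527 and 723 lower, and no gene past 2-fold changed direction. Of 129 named or listed genes past 2-fold, 15 came under 2-fold in some setting, among them *Krt15*, *Lama3*, *Pfkl*, *Srxn1*, *Errfi1*, *Id1* and *Nr1d1*. The settings on *Malat1* and *Gm42418*, on 15000 to 30000 UMIs and on those 25% of cells were added after the data had been seen. Leaving out every cell with a UMI of a stromal or immune gene left 50 UW cells and 1 W cell, too few for a value. The W sum rests on 591 cells, so genes under 20 CPM were not compared.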
